A study of Argopecten irradians irradians with 6 samples.

Results

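The microRNA miR-190 was examined in bay scallops (Argopecten irradians irradians), by small-RNA sequencing of the adductor, which is the shell-closing muscle. Its members are the names in the deposited count table whose family number, after the species prefix, is exactly 190, which gave 53 of 5446 names. Names with identical counts in all 6 libraries were merged. Of the 53 names, 21 had 0 counts in every library, and the other 32 held 5 distinct count profiles, of 1005 such profiles in the table. The members were chosen by name; of the measured values, the counts served only to merge names, and no difference between groups entered the choice. miR-190 was, however, taken up with earlier results of these libraries known.

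The white group was the adductor muscle of Bohai Red scallops, labelled white as a genotype, and the orange group was that of QN Orange scallops, labelled orange. Each group had 3 libraries, and each library pooled 3 of 9 muscles taken from its strain, so strain and muscle colour cannot be told apart and the spread within a group is that between pools. The series asks about carotenoid accumulation in the orange muscle. The columns of the table carry letters only: the B columns were read as Bohai Red and the G columns as QN Orange, and every direction given here rests on that reading.

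MicroRNAs are short RNAs that guide Argonaute proteins to messenger RNAs and repress them, mainly through pairing of the seed near their 5′ end. miR-190 is an old family, found in protostomes and vertebrates alike. In flies and mammals its gene lies in an intron of a talin gene, and talin links integrins to the actin cytoskeleton, also at muscle attachments. In Drosophila it represses a prolyl hydroxylase of the hypoxia pathway. Its role in bivalve muscle is not known from these data.

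The table counts the same reads under many species' names, so its column totals of 85674751 to 152002629 are not numbers of reads. Levels are therefore given against a library total that takes 1 row, the most abundant, from each of 716 families. This total was 2092825 to 4001516 per library, and in it each predicted miRNA is a family of its own. Some predicted miRNAs still had identical counts in every library, such as Contig991_28417 and Contig991_28408. The total and the numbers of families given below may therefore still repeat some reads, which was not tested. The defining muscle miRNAs miR-1 and miR-133 were abundant in every library. Together with miR-206 they held 293655 to 520769 TMM-scaled counts per 1000000 (CPM). Nearly all of this was miR-1 and miR-133, and miR-206 had too few counts to be tested.

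Nearly all miR-190 counts stood under 2 names. The name cte-miR-190, whose prefix stands for the annelid Capitella teleta, had 8245, 8542 and 6669 counts in the white libraries, given here and throughout in the order of replicates 1 to 3. It had 3158, 2311 and 1566 counts in the orange libraries. Every white library thus held more counts than every orange one, and over the 6 libraries this name held 73.7% of the counts summed over the 5 distinct profiles.

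The second name, mle-miR-190-5p, has the prefix of the sea slug Melibe leonina, a mollusc. It had 3104, 2996 and 2348 counts in white and 952, 893 and 509 in orange muscle. It held 26.1% of the summed profiles, and its groups did not overlap either. The other 3 profiles together held 0.244%.

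The name of the limpet Lottia gigantea, also a mollusc, was among the rare ones. lgi-miR-190 had 16, 18 and 21 counts in the white libraries and 11, 4 and 6 in the orange ones. A single profile was repeated under 28 vertebrate names, 23 of them lettered miR-190a and among them those of human, mouse and zebrafish, with 6, 5 and 4 counts in white and 4, 1 and 1 in orange muscle. The last profile, gmo-miR-190a-5p of the cod Gadus morhua, had 2 counts in all in each group. The 21 names at 0 counts were 18 arthropod names, 2 of lancelets and 1 of a priapulid worm, where a count of 0 allows up to 3 counts, or 7.50e-05% to 0.000143% of a library. No other family shared a detected miR-190 profile.

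All the arms named were 5p: 30 of the 53 names ended in 5p, 23 named no arm and 0 named the 3p arm, so no ratio between arms could be formed. No name carried the letter b. How reads were assigned to names is not given in the sources used here.

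**Figure D1:**
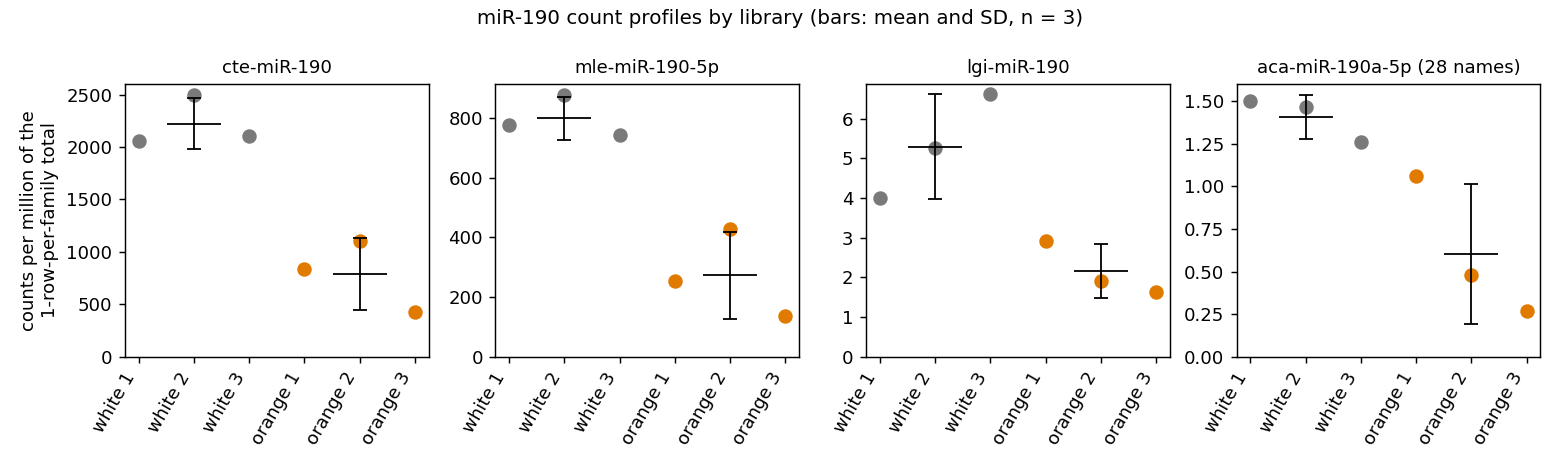
Counts per 1000000 of the 1-row-per-family total (linear axis from 0) for the 4 most abundant miR-190 profiles, 1 point per library, grey for white and orange for orange muscle, with group mean and SD (n = 3). In each of the 4 panels all white points lie above all orange points. For the profile of the vertebrate names this rests on 1 to 6 counts per library. White replicate 3 and orange replicate 1 tie there at 4 counts and differ only through the library totals. The vertical scales differ, from a white mean of 2223 for cte-miR-190 to 1.41 for the profile of the vertebrate names.

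The proportions of the names to one another were compared within libraries. The counts of mle-miR-190-5p were 37.6%, 35.1% and 35.2% of those of cte-miR-190 in white muscle. They were 30.1%, 38.6% and 32.5% in orange muscle, so the ranges overlapped. The log2 ratio was -1.48 ± 0.06 in white and -1.57 ± 0.18 in orange muscle (SD, n = 3), a difference of -0.10 (SE 0.111, exact two-sided permutation p = 0.5, adjusted p = 0.5 over 7 comparisons). For lgi-miR-190 the difference of this log2 ratio was 0.36 (SE 0.399, exact permutation p = 0.4), and for the vertebrate profile 0.46 (SE 0.339, exact permutation p = 0.3). For gmo-miR-190a-5p, with 0 or 1 count per library, it was 1.79 (SE 0.865, exact permutation p = 0.2), and the ranges of all 4 ratios overlapped. With a pseudocount of 1 in place of 0.5, the vertebrate profile and gmo-miR-190a-5p gave 0.66 and 1.79, each at an exact permutation p of 0.1, the smallest possible. As gmo-miR-190a-5p had 2 counts in each group, its ratio largely follows the count of cte-miR-190. The vertebrate profile had 1 to 6 counts per library, so its ratio depends on the pseudocount. Neither ratio can show a shift between names. Whether the names count the same reads or different ones was not tested. If none are shared, the sum over profiles is 1.31 to 1.39 times the count of cte-miR-190 alone, depending on the library.

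As a share of the counts, miR-190 was at 0.206%, 0.250% and 0.211% in white muscle. The exact (Clopper-Pearson) 95% intervals of these shares were 0.202% to 0.211%, 0.245% to 0.256% and 0.206% to 0.216%. In orange muscle the share was 0.0840%, 0.110% and 0.0424%, with intervals of 0.0811% to 0.0870%, 0.106% to 0.115% and 0.0403% to 0.0445%. These intervals cover counting error only.

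The lowest white share was 1.87 times the highest orange share. In both groups the libraries varied by more than their counting intervals, and the interval of white replicate 2 lay above those of white replicates 1 and 3. The share of orange replicate 2 was 2.61 times that of orange replicate 3, against a span of 1.21 times among the white libraries. In TMM-scaled CPM these spans were 3.17 times in orange and 1.67 times in white muscle. The means were 0.222% ± 0.0243 in white and 0.0789% ± 0.0343 in orange muscle (SD, n = 3 each), a ratio of 2.82, and the exact two-sided permutation test gave p = 0.1 (adjusted p = 0.233 over the 7 comparisons), the smallest p that 3 against 3 libraries allow.

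Ratios to the muscle miRNAs need no scaling between libraries. Both reference miRNAs are conserved regulators of muscle differentiation. One count of miR-190 stood against 120, 111 and 132 counts of miR-133 in the white libraries, and against 263, 233 and 462 in the orange libraries. The log2 ratio to miR-133 was -6.92 ± 0.13 in white and -8.25 ± 0.53 in orange muscle, a difference of -1.33 (SE 0.313, exact permutation p = 0.1, adjusted p = 0.233).

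Against miR-1 the ratio was 94.7, 75.3 and 84.8 counts of miR-1 per count of miR-190 in the white libraries. It was 130, 131 and 240 in the orange libraries, of which orange replicate 3 stood apart from the other two. The difference in log2 ratio was -0.92 (SE 0.309, exact permutation p = 0.1, adjusted p = 0.233). For both ratios every orange library was below every white one. Without orange replicate 3 the difference to miR-1 was -0.63, and that to miR-133 was -1.03.

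**Figure D2:**
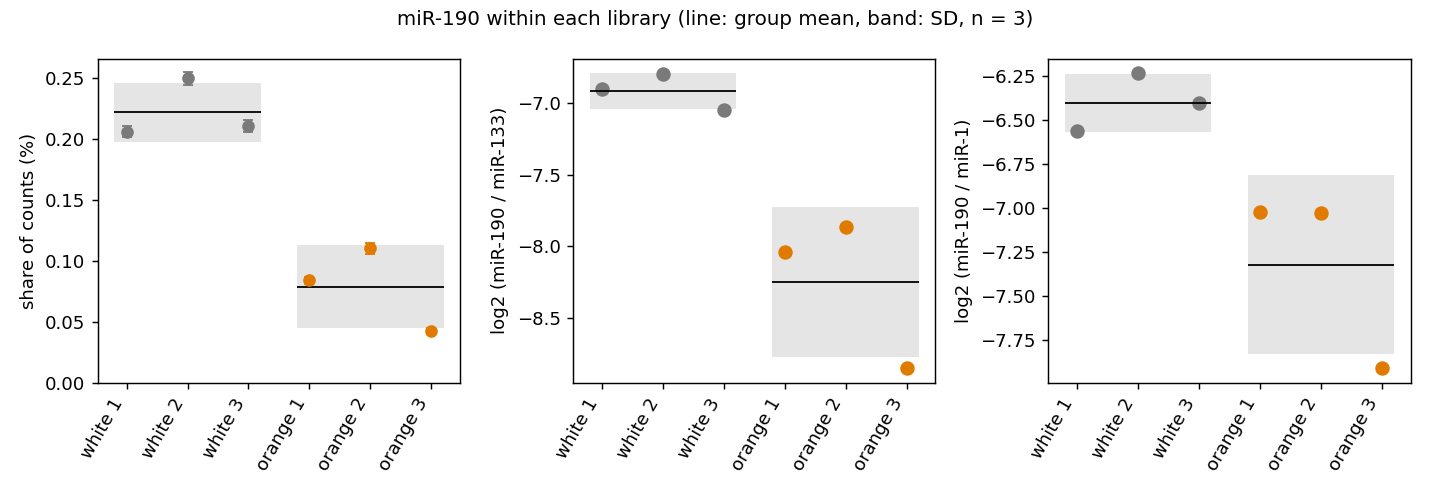
miR-190 in each library as a share of counts (left, %, bars: exact 95% interval, axis from 0) and as log2 ratios to miR-133 (middle) and miR-1 (right), with the group mean as a line and the SD as a band (n = 3). The white libraries lie above the orange ones in all 3 panels, and orange replicate 3 is the lowest point in each.

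In the fit over all families, miR-190 was at 2117 ± 561 CPM in white and 876 ± 503 CPM in orange muscle (SD, n = 3, TMM-scaled). The values were 1632, 2731 and 1986 CPM in white and 747, 1431 and 451 CPM in orange muscle. On this scale the groups stayed apart, but the lowest white library was only 1.14 times the highest orange one. The log2 difference of miR-190, orange minus white, was -1.27 (SE 0.493), a level 2.42-fold higher in white muscle. It did not pass the threshold of 0.05 (adjusted p = 0.160, edgeR's quasi-likelihood test with Benjamini-Hochberg adjustment). The median family had a log2 difference of 0.20, so miR-190 lay at -1.47 relative to it. In the same edgeR fit miR-1 differed by -0.43 (SE 0.281, adjusted p = 0.347) and miR-133 by -0.05 (SE 0.267, adjusted p = 0.921). Each ratio above also carries the difference of its reference miRNA.

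By the same test, 13 of 142 families passed (9.15%), 6 of them lower in orange muscle (4.23%). The groups were apart with orange lower, as for miR-190, in 21 families (14.8%), and miR-190 was 27th by p. The call depended on the filter and the test: with no filter on low counts, over 491 families, the adjusted p of miR-190 was 0.00148, and with DESeq2's test and size factors it was 0.00864. Over 17 other settings its adjusted p ranged from 0.00148 to 0.259 and its log2 difference from -2.08 to -1.02. Without orange replicate 2, the orange library with the highest share, the log2 difference was -1.75, and without orange replicate 3 it was -1.02.

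**Figure D3:**
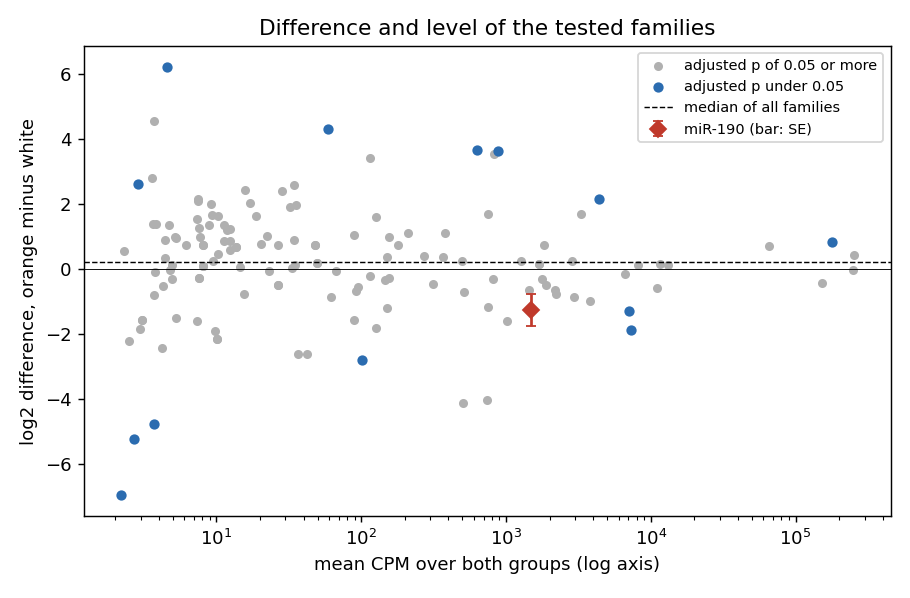
Log2 difference (orange minus white) against mean CPM (log axis) for the 142 families tested, 1 point per family, blue where the adjusted p was under 0.05, with miR-190 as a red diamond with its SE and the median of all families as a dashed line. miR-190 lies at -1.27, below the median of 0.20 and among the grey points.

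**Figure D4:**
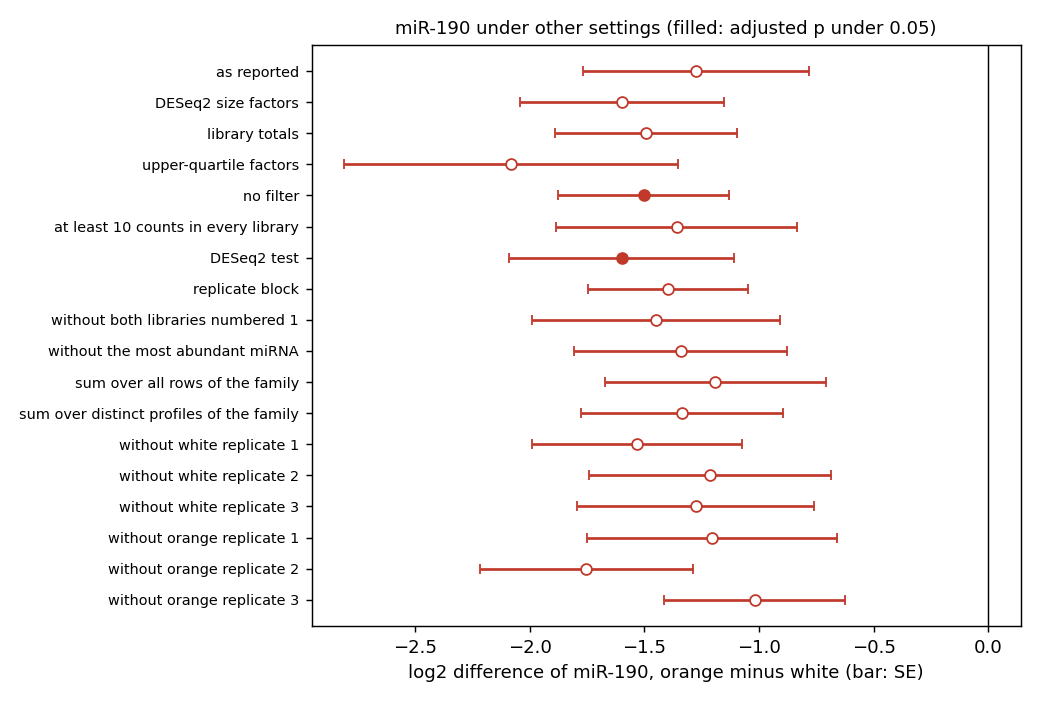
Log2 difference of miR-190 (orange minus white, bars: SE) as reported and under the 17 other settings, filled where the adjusted p was under 0.05. All 18 values lie below 0, from -2.08 to -1.02, and 2 points are filled.

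Of the 5 detected profiles, 3 passed the filter on low counts, and they were fitted among 645 profiles of the whole table on the same scaling. The log2 difference was -1.27 for cte-miR-190 (SE 0.477, adjusted p = 0.219, edgeR). For mle-miR-190-5p it was -1.30 (SE 0.557, adjusted p = 0.247) and for lgi-miR-190 -1.14 (SE 0.491, adjusted p = 0.247). None of these passed, and by edgeR 0 of the 645 profiles did (0.00%), against 34 by DESeq2. At an unadjusted threshold of 0.05, edgeR passed 126 profiles (19.5%), 30 of them lower in orange muscle (4.65%), and cte-miR-190 was the one miR-190 profile among these 30. The groups were apart with orange lower in 40 of the 645 profiles (6.20%), among them these 3. Under DESeq2's test cte-miR-190 had an adjusted p of 0.0498, and with upper-quartile factors cte-miR-190 and mle-miR-190-5p had adjusted p of 0.0292 and 0.0449. The profiles may share reads and are not independent of each other.

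miR-190 was among the more abundant families in both muscles. Of the 716 families, 491 were detected over the 6 libraries together. By count, with no term for length, miR-190 ranked 25th, 17th and 20th of the 716 in white muscle. In orange muscle it ranked 28th, 21st and 36th. By mean CPM over the 6 libraries it stood 25th of the 142 families tested. Just above it were miR-263, of epithelial and sensory cells in other animals, at 1769 CPM on average, and the predicted miRNAs Contig991_28417 and Contig991_28408, which had identical counts, at 1696 CPM. Just below it were miR-279 at 1436 CPM, miR-96 at 1266 CPM and the predicted Contig436_17060 at 1017 CPM, against 1496 CPM for miR-190. The ranges over libraries of all 6 neighbours overlapped that of miR-190, from 451 to 2731 CPM, so its place among them is not resolved. In white muscle the mean of miR-190, 2117 CPM, was above those of all 6, and in orange muscle its mean of 876 CPM was below those of 5.

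Of all 142 families tested, 23 had a more negative log2 difference than miR-190. Among the 28 families with a mean over 1000 CPM, a bound chosen after the values were seen, 3 did. They were the predicted Contig632_21629 at -1.89 and the lophotrochozoan miR-1985 at -1.31, both with an adjusted p under 0.05, and Contig436_17060 at -1.60 (SE 0.619, adjusted p = 0.160, edgeR).

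The families whose levels followed those of miR-190 most closely over the 6 libraries were found by the root mean squared difference of centred log2(CPM + 1) values. As the values were centred over all 6 libraries, the difference between groups is part of this measure. The direction of the nearest families is therefore largely fixed by how they were found. The nearest of 141 were the predicted Contig43_707 (0.337) and bantam (0.337), a growth-promoting miRNA in flies, followed by miR-153 (0.441), which is neuronal in vertebrates, and the predicted Contig21508_37326 (0.459) and Contig410_14939 (0.461), where the median family was at 1.24. bantam was at 5033 ± 1059 CPM in white and 2542 ± 1271 CPM in orange muscle, which differed by -0.99 on the log2 scale (SE 0.395, adjusted p = 0.160, edgeR). For Contig43_707 it was -0.86 (SE 0.348, adjusted p = 0.160). None of the 5 passed the threshold, and their smaller differences are seen in the flatter lines of the plot of centred values. All 6 share the scaling of the libraries: white replicate 2 and orange replicate 2, the highest of their groups for miR-190, were those with the lowest TMM factors of their groups, 0.916 and 0.771, against 1.06 to 1.26 and 0.940 to 1.13 for the others. The part of the scaling in this likeness was not tested.

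**Figure D5:**
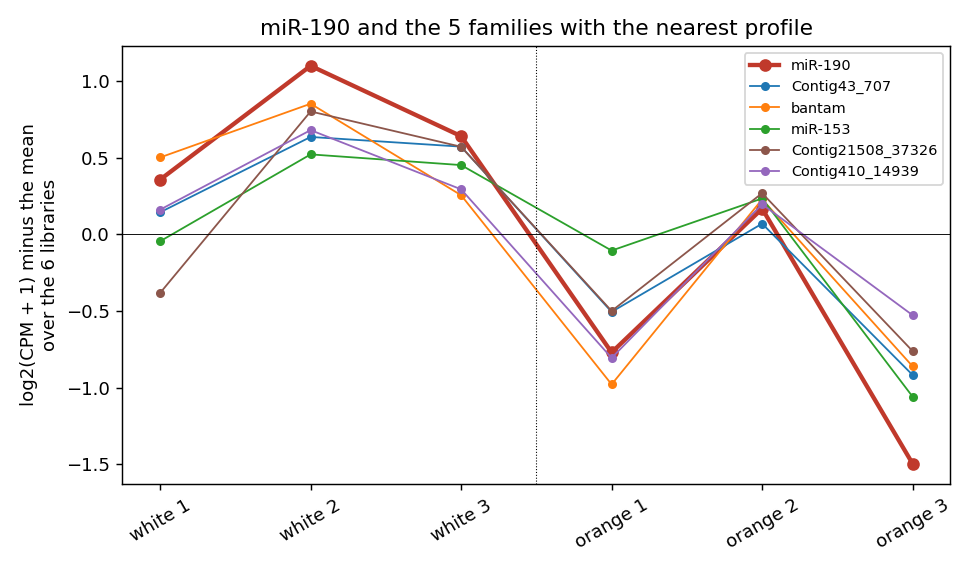
Log2(CPM + 1) minus its mean over the 6 libraries for miR-190 (thick red) and the 5 families nearest to it; lines join the points of a family and imply no order. Each family has its highest orange value in orange replicate 2, and miR-190 has the widest span, from 1.10 in white replicate 2 to -1.50 in orange replicate 3.

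Of 35 conserved families shared by bilaterian animals, 31 were tested. Among them 12 had a log2 difference below 0, against 58 of all 142 families (40.8%), and their median was 0.23, against 0.20 for all. By edgeR, 0 of this list passed as lower and 2 as higher in orange muscle, where 4.23% of all families were lower and 4.93% higher. These were miR-100 and miR-281, the former a partner of let-7 in developmental timing. miR-190 had the third most negative log2 difference of the list, after miR-10 at -4.11 (SE 1.63) and miR-278 at -1.81 (SE 1.37). The groups of those 2 overlapped. In 7 of the 31 families of the list the groups were apart with orange higher, against 29 of all 142 families. In 3 they were apart with orange lower, against 21 of all 142 families (14.8%). The 3 were miR-190, bantam and miR-193 (log2 difference -0.78, SE 0.346, adjusted p = 0.198, edgeR). Of a list of 9 families tied to hypoxia, only miR-190 had enough counts to be tested. Of the others, miR-103, miR-107 and miR-155 had 1 count each in all libraries together, miR-199 had 0, and 4 were not among the names used.

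Markers of other tissues varied between libraries. The 5 neural families, all detected, summed to 145 to 160 CPM in white muscle and to 769, 126 and 64.8 CPM in orange replicates 1 to 3. The members of this list did not move together. Most of each white sum was miR-153, at 113 ± 22.9 CPM in white and 77.3 ± 32.1 CPM in orange muscle (SD, n = 3). Most of the sum in orange replicate 1 was miR-124, at 604 CPM there, against 13.0 and 11.8 CPM in orange replicates 2 and 3. The 5 epithelial and sensory families, all detected, summed to 7513, 1583 and 1459 CPM in white replicates 1 to 3 and to 2533 to 4810 CPM in orange muscle. Without both libraries numbered 1, which held the most of these in their groups except for neural miRNAs in white muscle, the log2 difference of miR-190 was -1.45 (adjusted p = 0.125, edgeR). The 6 gut and digestive gland families, all detected, summed to 2286 to 2975 CPM in white and to 1196, 2656 and 1431 CPM in orange replicates 1 to 3. Most of each sum was miR-216, at 2661 ± 355 CPM in white and 1689 ± 801 CPM in orange muscle (SD, n = 3). By contrast, miR-375 and miR-194 of this list were higher in orange muscle. Their log2 differences were 2.57 and 1.52 (adjusted p = 0.127 and 0.194, edgeR). The part of these tissue markers in the difference of miR-190 was not tested. Of 3 blood cell miRNAs, miR-223 and miR-451 were at 0 or not among the names, and the list summed to at most 0.639 CPM. In pooled tissue, fewer cells of a type and less miRNA per cell cannot be told apart.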

How the data were processed

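Whole-number counts per miRNA name and TPM values were used as deposited by the authors, for 3 white and 3 orange libraries. The deposited counts carry no normalization, and the deposited TPM values are these counts per 1000000 of their column total, to within 5.00e-05, with no length term. The trimming, aligner and reference set are not given in the sources used here. The TPM table has 9 other per-sample columns, which were not used. miRNA sequences were not used here.

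Each family was represented by its row with the highest total. Orange and white libraries were compared in edgeR 4.0.16 under R 4.3.3 (TMM, filterByExpr by group, glmQLFit with robust = TRUE, glmQLFTest; SE as the log2 difference over the square root of F), adjusted over all families. Distinct profiles were fitted with the same library sizes and factors. Shares and log2 ratios (pseudocount 0.5) went through exact permutation tests, two-sided, in SciPy 1.17.1. DESeq2 1.42.0 was an alternative. The fits were also run on simulated counts, with a fixed spread that was not taken from these libraries. That run does not show how reliable the calls are here. No 2 libraries had identical counts, and replicate pairs differed beyond sampling noise.

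Named besides the members were the 5 families nearest to miR-190 by root mean squared difference, the 3 next above and below it by mean CPM, miR-133, miR-1, 2 lists of families and 5 lists of tissue markers. The families over 1000 CPM with a more negative difference were named after their values were seen. Members and lists were chosen with earlier results of these data known.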

Additional observations from a re-analysis of the deposited data

How the results depend on the processing

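The log2 difference of miR-190 stayed below 0 in all 17 other settings and did not pass in 15 of them; it passed with no filter (-1.50) and by DESeq2's test (-1.60). Leaving out 1 library gave -1.75 to -1.02. The sign of the share and of the ratios to miR-133 and miR-1 also held, though groups that do not overlap largely fix it. The sign of the ratios between names, whose groups overlapped, held in the 7 other settings of each. Among profiles, cte-miR-190 passed with upper-quartile factors (-2.08) and by DESeq2's test (-1.60), and mle-miR-190-5p with upper-quartile factors (-2.08). With upper-quartile factors the groups of miR-190 overlapped. lgi-miR-190 had too few counts for the filter of 10 in every library. The median rank of miR-190 was 23 and moved to 34 with sums over all rows. The number of families called, 13, was 20 under library totals, 29 with no filter, 8 with at least 10 counts in every library and 33 by DESeq2's test, and 0 to 20 without 1 library: 0 without white replicate 2, 0 without white replicate 3 and 20 without white replicate 1. The number of profiles called, 0, was 10 with DESeq2 size factors, 72 under library totals, 71 with upper-quartile factors, 56 with no filter, 34 by DESeq2's test, 57 with the replicate block, 77 without both libraries numbered 1 and 4 with the profiles' own factors, and 0 to 70 without 1 library (70 without white replicate 1). The median family moved from 0.20 under TMM to -0.07 with DESeq2 size factors, -0.01 with library totals and -0.39 with upper-quartile factors, and miR-190 relative to it was at -1.47, -1.53, -1.48 and -1.69. The causes were not tested. The replicate block gave -1.40 (adjusted p = 0.0751, edgeR) and 12 families called; same-numbered libraries deviated together at r = 0.19, 0.00033 and 0.16, so the numbers were not taken as pairs, and white replicate 2 was nearest to orange replicate 3. Depth limits the rare names, with at most 21 counts per library.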
